A study of Mus musculus with 7 samples.

Results

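Antibody repertoires of the deep cervical lymph nodes (dCLN) were set against those of the superficial cervical lymph nodes (sCLN), once in wild-type (WT) and once in 5xFAD mice. Members were the cell barcodes with exactly 1 productive immunoglobulin heavy chain in the dCLN and sCLN libraries. They numbered 13074 of the 17381 such cells in 6 libraries whose node and genotype are labelled, or of 19869 with a further library pooled from every node and genotype. The dCLN held 3374 cells in WT and 3904 in 5xFAD, and the sCLN held 3440 in WT and 2356 in 5xFAD.

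All animals were females of 10 to 11 months that received a lethal dose of ketamine and xylazine, then heparin, and were perfused with saline. The 5xFAD line is a transgenic mouse model in which amyloid plaques form in the brain, and the labels do not describe its transgenes further. The labels give neither the strain background nor the number of animals. Tubes of cells were tagged with hashtag antibodies before they were combined, and no map from cells to hashtags was used here. Each node and genotype was therefore 1 library, so that no difference below has a replicate check and libraries, not animals, are compared. Agreement between both genotypes is given as whether both dCLN libraries lay on the same side of both sCLN libraries. The tables hold immunoglobulin contigs and no other genes, so the labelled nodes and the cell type could not be checked against marker genes.

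Cervical nodes receive lymph from the head: the deep nodes are a known outlet of meningeal lymphatic vessels and of cerebrospinal fluid, and the superficial nodes drain mainly the face, oral region and salivary glands. A naive B cell builds its receptor by joining V, D and J segments, with non-templated N bases added at the joints by terminal transferase, and carries it as IgM and IgD. After activation the cell may switch to IgG, IgA or IgE and collect point mutations in its V region. Relatives of 1 such cell form a clone, and antibody-secreting cells contain far more immunoglobulin RNA than other B cells.

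The libraries held 138878 to 312484 immunoglobulin UMIs (unique molecular identifiers, 1 per captured RNA). Cells had a median of 9 heavy chain UMIs in WT dCLN, 11 in WT sCLN, 13 in 5xFAD dCLN and 12 in 5xFAD sCLN. Barcodes with more than 1 heavy chain were left out. They were 5.62% and 5.27% of barcodes with a heavy chain in the WT and 5xFAD dCLN and 3.64% and 3.99% in the sCLN, higher in both dCLN libraries. The 6 pairs of these 4 libraries shared 117 barcode sequences. Of those with exactly 1 productive heavy chain in both libraries, none carried the same heavy chain in both. Intervals in parentheses are exact Clopper-Pearson 95% intervals. They and the intervals of differences cover counting error only, and cells of 1 clone are not independent.

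Within a genotype, 6 receptors were found in both the deep and the superficial node, 4 in WT and 2 in 5xFAD. The match required the same V and J genes and an identical junction of the heavy chain, and the same V and J genes and junction length of the light chain. The heavy chain junctions of 5 of them are shown because they are what identifies a clone in both nodes, from the codon of the conserved cysteine to that of the conserved tryptophan, 5′ to 3′. Capitals mark bases that the deposited table assigned to none of V, D and J.
IGHV1-26 with IGHJ4 and IGKV2-137, WT: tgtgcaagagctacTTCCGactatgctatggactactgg
IGHV1-64 with IGHJ4 and IGKV3-2, WT: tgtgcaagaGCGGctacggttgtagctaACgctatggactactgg
IGHV11-2 with IGHJ1 and IGKV14-126, WT: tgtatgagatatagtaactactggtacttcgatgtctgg
IGHV8-8 with IGHJ2 and IGKV6-15, 5xFAD: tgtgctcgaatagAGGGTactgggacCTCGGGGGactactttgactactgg
IGHV1-26 with IGHJ2 and IGKV1-135, 5xFAD: tgtgcaagaGGGgactactgg

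These 5 receptors differed in how much of the junction came from no germline segment. The IGHV8-8 junction held 13 such bases in 51, split between both joints, and belonged to 1 IgG2b and 1 IgG2c cell of the dCLN and 1 IgG2c cell of the sCLN, all without a V mutation. The IGHV1-26 and IGHJ2 junction of 21 bases held 3 such bases and no D segment was called in it, and 1 IgM cell of each node carried it. The IGHV11-2 junction held 0 N bases, and 1 IgM cell of each WT node carried it, as did 1 IgM cell of the pooled library. IGHV11-2 with IGKV14-126 is the textbook receptor of B-1a cells that bind phosphatidylcholine, and its junction is known to recur between animals. IGHV11-2 as a whole was in 2 WT dCLN, 4 WT sCLN, 3 5xFAD dCLN and 2 5xFAD sCLN cells.

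The 2 other WT receptors shown differed in isotype and in UMIs per cell. The IGHV1-64 receptor was IgA in 1 cell of each node, with 5.21% V mutation in both cells and 22 and 3074 heavy chain UMIs. The IGHV1-26 and IGHJ4 receptor was the most numerous of the 6, in 4 dCLN cells (3 IgM, 1 IgD) and 9 sCLN cells (all IgM), and 2 IgM cells of the WT inguinal library carried it too. In each of the 6 receptors the light chain junction was identical in all cells too.

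Between libraries of different genotype, which cannot share an animal, 0 of these receptors were found. The rate was 0.288 receptors per 1000000 dCLN-sCLN pairs of cells within genotypes (exact Poisson interval 0.106 to 0.628) and 0 across genotypes, where the interval reached 0.173. These intervals overlap in part, and whether the rates differ was not tested. When the light chain was not considered, 7 heavy chains were found within and 4 across genotypes, at 0.336 (0.135 to 0.693) and 0.187 (0.0510 to 0.479) per 1000000 pairs.

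Switched cells were about as frequent in both nodes of WT mice. They made up 4.1% of dCLN (3.45 to 4.84) and 4.23% of sCLN cells (3.58 to 4.96) with an isotype call in WT, a difference of -0.127 percentage points (-1.10 to 0.853). In 5xFAD the dCLN share of 4.11% (3.51 to 4.79) was above the sCLN share of 2.90% (2.26 to 3.66) by 1.21 points (0.238 to 2.14), although the intervals of the libraries overlapped. With identical barcodes counted once, the 5xFAD difference was 0.968 points (-0.00757 to 1.90), an interval that held both signs. The 4 libraries did not separate by node, since the WT sCLN had the highest share.

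What the switched cells had become separated by node for 3 of the 5 switched isotypes (60%): IgA and IgG2b were higher in both dCLN libraries and IgG1 was lower. IgA is the isotype of mucosal and glandular secretions, and IgG1 is the isotype that interleukin 4 favours in mice. With 5 isotypes and 4 libraries, a count of this size is a description of these libraries.

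IgA was carried by 17 of 3314 WT dCLN cells (0.513%, 0.299 to 0.820) and by 9 of 3404 WT sCLN cells (0.264%, 0.121 to 0.501). In 5xFAD it was carried by 22 of 3866 dCLN cells (0.569%, 0.357 to 0.860) and by 4 of 2343 sCLN cells (0.171%, 0.0465 to 0.437). The ratio of dCLN to sCLN was 1.94 in WT and 3.33 in 5xFAD. The differences were 0.249 percentage points in WT (-0.0706 to 0.588), an interval that held both signs, and 0.398 in 5xFAD (0.0583 to 0.715). The intervals of the libraries overlapped in both genotypes. Of switched cells, IgA made up 12.5% and 13.8% in the WT and 5xFAD dCLN and 6.25% and 5.88% in the sCLN.

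The IgA cells of the dCLN were not 1 expanded family. In WT they formed 17 clones over 16 V genes among 17 cells, and in 5xFAD 20 clones over 15 V genes among 22 cells. Every sCLN IgA cell was a clone and a V gene of its own, 9 in WT and 4 in 5xFAD. IgA cells with at least 100 heavy chain UMIs numbered 2 in WT dCLN, 5 in WT sCLN, 9 in 5xFAD dCLN and 0 in 5xFAD sCLN, so the IgA cells rich in immunoglobulin RNA did not follow the node. Among cells under 100 UMIs, an alternative chosen after seeing the data, IgA was 0.337 points higher in WT dCLN than sCLN (0.0650 to 0.644) and 0.167 higher in 5xFAD (-0.143 to 0.436). Mean V mutation of IgA cells was 3.43% and 3.32% in WT dCLN and sCLN and 2.48% and 1.40% in 5xFAD (SD over cells 2.58, 2.06, 2.18 and 1.03).

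IgG1 was carried by 13 of 136 switched cells in WT dCLN (9.56%, 5.19 to 15.8) and by 34 of 144 in WT sCLN (23.6%, 16.9 to 31.4). In 5xFAD it was carried by 32 of 159 in dCLN (20.1%, 14.2 to 27.2) and by 19 of 68 in sCLN (27.9%, 17.7 to 40.1). The WT difference was -14.1 percentage points (-23.0 to -4.92) and the 5xFAD difference -7.82 (-21.4 to 4.61), so the order was the same and only the WT intervals did not overlap. The WT library intervals did overlap with each clone counted once per isotype, at -12.4 points (-21.7 to -2.86). They also did so without barcodes seen in several libraries, at -12.8 points (-21.8 to -3.58). Both intervals of the difference stayed negative. Of all cells with an isotype, IgG1 made up 0.392%, 0.999%, 0.828% and 0.811% in WT dCLN, WT sCLN, 5xFAD dCLN and 5xFAD sCLN. With every barcode counted, the lower IgG1 share of 5xFAD dCLN was therefore not a lower number of IgG1 cells per B cell. With identical barcodes counted once, the values were 0.292%, 0.927%, 0.690% and 0.798% in the same order, so the 5xFAD dCLN was then below its sCLN. The WT dCLN was lowest in both counts. The IgG1 cells of 5xFAD formed 22 clones among 32 cells in dCLN and 17 among 19 in sCLN. In WT they formed 10 among 13 and 28 among 34.

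The other IgG subclasses, which in C57BL/6 mice accompany type 1 and antiviral responses (IgG2c) or responses to T-independent and mixed stimuli (IgG2b, IgG3), were less ordered by node. IgG2b made up 35.3% and 38.4% of switched cells in the WT and 5xFAD dCLN and 32.6% and 32.4% in the sCLN, with overlapping intervals. IgG2c was higher in dCLN than sCLN in WT (40.4% and 34.0%) and lower in 5xFAD (22.6% and 30.9%). IgG3 was carried by 3, 5, 8 and 2 cells in WT dCLN, WT sCLN, 5xFAD dCLN and 5xFAD sCLN. Within IgG cells, IgG2b and IgG2c together made up 86.6% in WT dCLN (79.1 to 92.1) and 71.1% in WT sCLN (62.7 to 78.6). In 5xFAD they made up 70.8% in dCLN and 67.2% in sCLN. The WT dCLN stood apart from its sCLN in this measure and the 5xFAD dCLN did not.

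**Figure D1:**
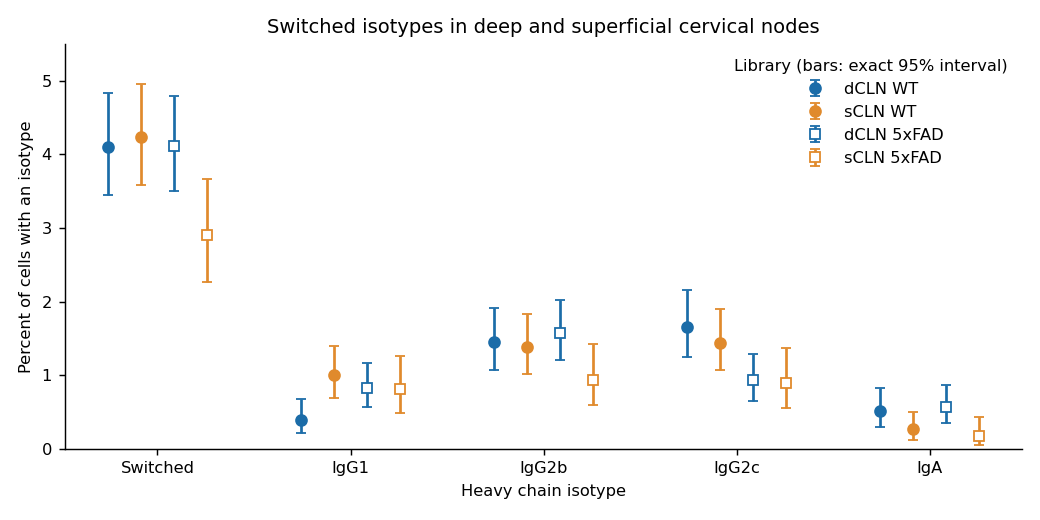
Percent of cells with an isotype call (y axis) that were switched, or carried IgG1, IgG2b, IgG2c or IgA (x axis), in each of the 4 libraries. Points are libraries (circles WT, squares 5xFAD, blue dCLN, orange sCLN) and bars exact 95% intervals; for IgA both blue points lie above both orange points, and for IgG1 the WT dCLN at 0.392% lies below the other libraries.

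Unswitched cells were called IgM or IgD from the 1 constant region of their contig, and the node difference had opposite signs in the genotypes. In WT, 27.9% of unswitched cells were IgD in the dCLN (26.3 to 29.5) and 23.5% in the sCLN (22.1 to 25.0), 4.38 percentage points higher in dCLN (2.23 to 6.54). In 5xFAD it made up 16.4% in dCLN (15.2 to 17.7) and 19.4% in sCLN (17.8 to 21.1), which is -2.96 points (-5.01 to -0.932).

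The IgD share fell with the UMIs of the cell in every library. From cells with 1 or 2 UMIs to cells with 21 or more it went from 55.3% to 6.33% in WT dCLN, from 53.9% to 3.86% in WT sCLN, from 50.7% to 3.19% in 5xFAD dCLN and from 69.8% to 1.74% in 5xFAD sCLN. The library with the higher IgD share was in both genotypes the one with the lower median of UMIs, 9 against 11 in WT and 12 against 13 in 5xFAD. With both nodes weighted to the same distribution over 5 UMI bins, the WT difference was 1.65 points (-0.396 to 3.69) and the 5xFAD difference -1.16 points (-2.98 to 0.650), and each interval held both signs. The order of the nodes changed between bins. In WT the IgD share at 3 to 5 UMIs was 45.3% in dCLN and 50.5% in sCLN, and the other bins were higher in dCLN. At 11 to 20 UMIs the WT shares were 18.7% (16.5 to 21.1) in dCLN and 13.4% (11.6 to 15.3) in sCLN, which did not overlap. In 5xFAD the dCLN was lower in each bin up to 10 UMIs and higher from 11 UMIs. Depth can still differ within a bin.

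**Figure D2:**
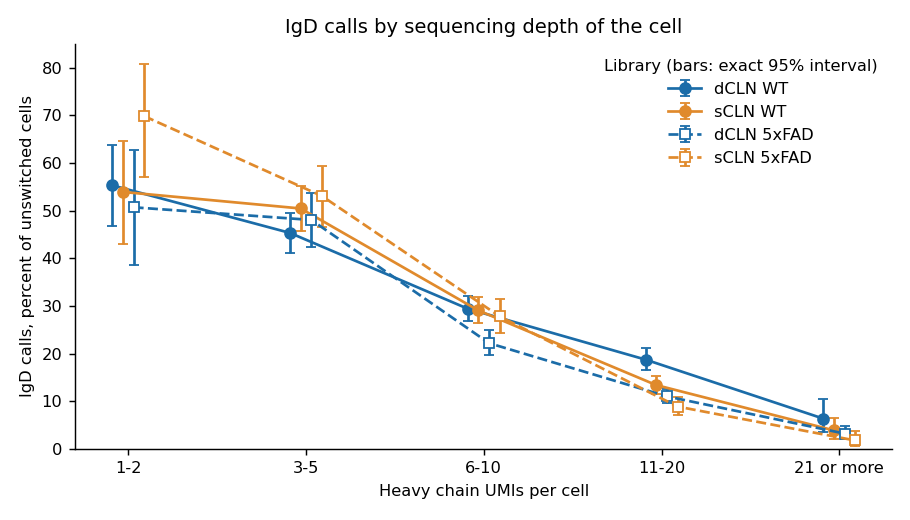
Percent of unswitched cells with an IgD call (y axis) in 5 bins of heavy chain UMIs per cell (x axis), in each library, with exact 95% intervals as bars (circles and full lines WT, squares and dashed lines 5xFAD, blue dCLN, orange sCLN). All 4 lines fall from above 50% in cells with 1 or 2 UMIs to under 7% in cells with 21 or more.

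V region mutation of switched cells did not order the libraries by node. The mean was 2.85% of V bases in WT dCLN and 2.86% in WT sCLN, a difference of -0.00318 points, and 2.22% in 5xFAD dCLN and 2.64% in 5xFAD sCLN, a difference of -0.425. The SD over cells was 2.55, 2.81, 2.02 and 2.72 in the same order. Mutation of 1% or more was present in 70.6%, 69.4%, 64.8% and 72.1% of switched cells, and 16.2%, 17.4%, 16.4% and 14.7% had none. Unswitched cells had means between 0.0185% and 0.0255%. These means include cells with mutation of 1% or more, 23 in WT dCLN, 20 in WT sCLN, 18 in 5xFAD dCLN and 13 in 5xFAD sCLN.

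The share of strongly mutated cells was lowest in the 5xFAD dCLN, though its interval overlapped that of the 5xFAD sCLN. In WT, 22 of 136 switched dCLN cells (16.2%, 10.4 to 23.5) and 26 of 144 sCLN cells (18.1%, 12.1 to 25.3) had 5% mutation or more. In 5xFAD, 11 of 159 dCLN cells (6.92%, 3.50 to 12) and 9 of 68 sCLN cells (13.2%, 6.23 to 23.6) did. The WT intervals overlapped as well. IgG2c had the highest mean of the 4 IgG subclasses in every library, at 3.28%, 3.49%, 2.47% and 3.74%. IgG1 cells had a lower mean in dCLN than in sCLN in both genotypes, 2.33% against 2.89% and 2.38% against 2.98%, differences far within the SD over cells (1.74, 3.31, 1.51 and 2.03).

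Mutations lay more densely in the antigen-contacting loops than in the framework of the V region in every library. In CDR1 and CDR2 of switched cells 5.09% of bases differed from germline in WT dCLN, 4.82% in WT sCLN, 3.30% in 5xFAD dCLN and 4.35% in 5xFAD sCLN. In framework 1 to 3 the values were 2.40%, 2.46%, 2.00% and 2.29%. The ratio of loops to framework was thus 2.12 and 1.96 in WT dCLN and sCLN and 1.65 and 1.90 in 5xFAD, with no order by node.

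**Figure D3:**
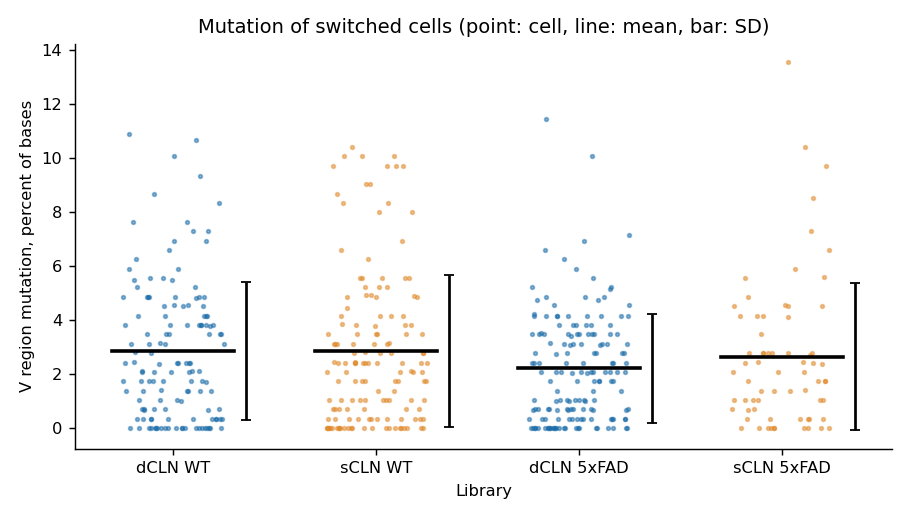
V region mutation (y axis, percent of V bases differing from germline) of each switched cell, by library (x axis; blue dCLN, orange sCLN). Points are cells, black lines means and bars the SD over cells; the means lie between 2.22% and 2.86%, and few 5xFAD dCLN cells reach 5%.

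Cells in clones of 2 or more were counted at 2356 cells per library, since clone shares rise with the number of cells sampled. They made up 10.4% of WT dCLN and 7.11% of WT sCLN cells, and 3.63% of 5xFAD dCLN and 7.60% of 5xFAD sCLN cells. The node difference was 3.29 points in WT and -3.97 in 5xFAD, of opposite sign.

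Nearly all of these clones were pairs of barcodes with the same receptor. Groups of barcodes with identical heavy and light chain junctions numbered 213 in WT dCLN, 165 in WT sCLN, 91 in 5xFAD dCLN and 85 in 5xFAD sCLN, of which 195, 164, 85 and 83 were pairs. Between 87.5% and 95.9% of their barcodes were unswitched and between 90.6% and 95.3% had no V mutation. The barcode with fewer UMIs had a median of 5, 7, 7 and 8 UMIs and the one with more had 9, 11, 12 and 12, against 10, 11, 13 and 12 in all other cells. Whether a pair is sister cells or RNA of 1 cell under 2 barcodes was not tested. Counted once, with 2269 cells per library, such barcodes left 0.771% of WT dCLN, 0.341% of WT sCLN, 0.500% of 5xFAD dCLN and 0.353% of 5xFAD sCLN cells in clones. Both dCLN libraries were then above both sCLN libraries, and the 5xFAD difference had changed sign, from -3.97 to 0.148 points.

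Among switched cells, membership in clones was higher in the dCLN of both genotypes. In WT 50 of 136 dCLN cells (36.8%, 28.7 to 45.5) and 29 of 144 sCLN cells (20.1%, 13.9 to 27.6) had a relative in their library, 16.6 points apart (5.60 to 27.3). In 5xFAD 35 of 159 dCLN cells (22.0%, 15.8 to 29.3) and 10 of 68 sCLN cells (14.7%, 7.28 to 25.4) had one, 7.31 points apart (-5.03 to 17.7). Only the WT intervals did not overlap. Of the 35 cells of the 5xFAD dCLN, 7 were IgG1 cells of 1 clone, the IGHV1-82 clone given below. These shares use all cells, and the 5xFAD sCLN has the fewest. At 2356 cells per library, an alternative chosen after seeing the data, they were 30.4%, 14.3%, 17.8% and 14.7%.

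With identical barcodes counted once, the order of the switched cells was the same and the values were smaller. In WT 21 of 117 dCLN cells (17.9%, 11.5 to 26.1) and 10 of 134 sCLN cells (7.46%, 3.64 to 13.3) were in clones, 10.5 points apart (1.77 to 19.5) with overlapping intervals. In 5xFAD 15 of 145 dCLN cells (10.3%) and 5 of 65 sCLN cells (7.69%) were, 2.65 points apart (-7.70 to 10.7). Of these 15 dCLN cells, 7 were the IgG1 cells of the IGHV1-82 clone, whose junctions all differ. The 5xFAD order thus rests in large part on 1 clone, and it was not computed without that clone. At 2269 cells per library the shares were 14.0%, 5.12%, 8.82% and 7.69%.

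**Figure D4:**
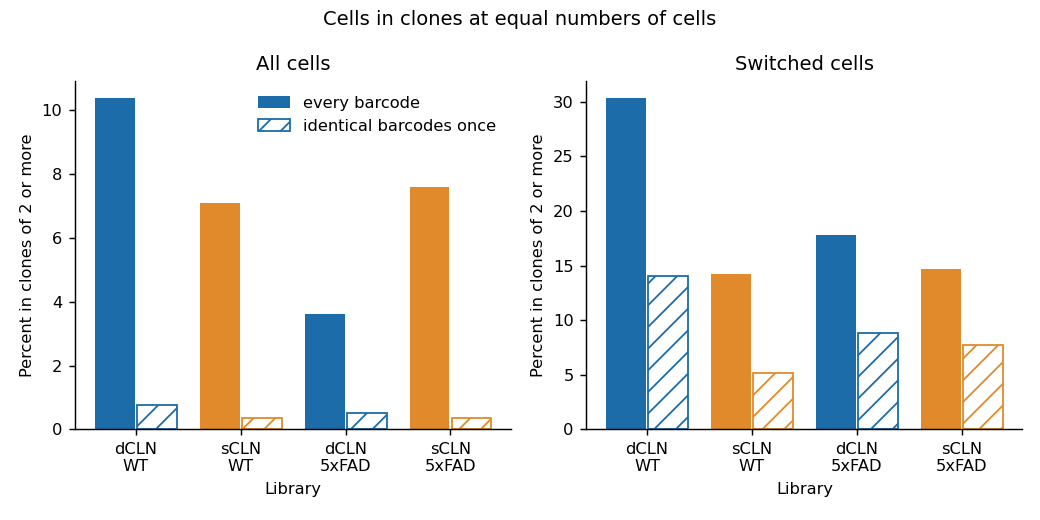
Percent of cells in clones of 2 or more (y axes, from 0) by library (x axis), for all cells on the left and switched cells on the right, as means over random draws of 2356 cells per library with every barcode (filled) and of 2269 with identical barcodes counted once (hatched). On the left the filled bars lie between 3.63% and 10.4% and the hatched bars all below 1%; on the right the dCLN bars are above the sCLN bars of the same genotype.

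The largest clone of each library is given next, the first by gene order where several were tied. No contrast between the nodes is drawn from these clones by themselves. In WT dCLN it was tied with 1 other clone and had 5 cells of IGHV1-26, IGHJ2 and IGKV9-120 (2 IgG1, 2 IgG2b, 1 IgG2c), with 3.82% to 4.17% mutation. In WT sCLN it was the 9 IgM cells of IGHV1-26, IGHJ4 and IGKV2-137 whose junction is printed above, which were in the dCLN as well. In 5xFAD sCLN 3 clones of 3 cells were tied, and the first was IgM with IGHV1-18, IGHJ4 and IGKV10-96.

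In 5xFAD dCLN the largest clone had 8 cells of IGHV1-82, IGHJ4 and IGKV4-57 (7 IgG1, 1 IgM), with 1.04% to 3.13% mutation. Its 8 junctions were all different, which sets it apart from the pairs of identical barcodes. Of these, 4 are shown beside both junctions of the WT dCLN clone as the sequences in which the variation within a clone can be read. Capitals mark bases that differ from the commonest base of the clone at that position.
IGHV1-82, 5xFAD dCLN, IgG1, 1.74% mutation: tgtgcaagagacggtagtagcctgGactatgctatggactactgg
IGHV1-82, 5xFAD dCLN, IgG1, 2.43% mutation: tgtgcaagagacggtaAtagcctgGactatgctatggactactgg
IGHV1-82, 5xFAD dCLN, IgG1, 2.78% mutation: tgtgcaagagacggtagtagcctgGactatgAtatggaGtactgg
IGHV1-82, 5xFAD dCLN, IgM, 1.74% mutation: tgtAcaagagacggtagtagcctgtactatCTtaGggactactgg
IGHV1-26, WT dCLN, 3 cells: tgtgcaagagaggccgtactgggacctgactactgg
IGHV1-26, WT dCLN, 2 cells: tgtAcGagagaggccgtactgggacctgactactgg

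Of the 4 IGHV1-82 sequences, 3 share 1 capital, in the middle of the junction, and differ by further single bases, while the IgM sequence differs at 4 other positions. This clone has 4 light chain junctions, and the rule that built clones compared only the length of these. The IgM cell joined it within the allowed distance of 0.15 of the junction length. In the WT clone the junction with 2 capitals belonged to both IgG2b cells and the other junction to the IgG1 and IgG2c cells. Clones with both switched and unswitched cells numbered 2 in WT dCLN, 0 in WT sCLN, 5 in 5xFAD dCLN and 1 in 5xFAD sCLN.

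Cells rich in immunoglobulin RNA, here those with 100 or more heavy chain UMIs, stand for antibody-secreting cells, though without gene expression the cell type was not checked. They numbered 21 in WT dCLN (0.634%), 23 in WT sCLN (0.676%), 16 in 5xFAD dCLN (0.414%) and 4 in 5xFAD sCLN (0.171%). The WT difference was -0.0420 points (-0.456 to 0.373) and the 5xFAD difference 0.243 points (-0.0763 to 0.529), and the libraries did not separate by node. Their isotypes were not the same in the dCLN libraries of both genotypes. WT dCLN had 7 IgG2b, 6 IgG2c, 6 IgM and 2 IgA high cells, from 13 clones, and 5xFAD dCLN had 9 IgA, 5 IgM, 1 IgG2c and 1 IgG3, from 15 clones. WT sCLN had 8 IgM, 5 IgA, 5 IgG2c, 3 IgG2b and 2 IgG1 from 21 clones, and all 4 of 5xFAD sCLN were IgM. Of switched cells, 11.0% in WT dCLN, 10.4% in WT sCLN and 6.92% in 5xFAD dCLN were high. In 5xFAD sCLN 0 of 68 were, with an exact interval that reached 5.28%.

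Heavy chain V gene use was close between the nodes. Of 97 IGHV genes, 43 made up at least 1% of cells in at least 1 library. Both dCLN libraries lay on one side of both sCLN libraries for 13 of these (30.2%), 9 higher and 4 lower in dCLN. With a ratio of at least 5 to 4 in both genotypes as well, 1 gene was left (2.33%). The difference between the nodes had the same sign in WT and 5xFAD for 25 of the 43 genes (58.1%).

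That gene was IGHV2-3 (GRCm38 chromosome 12, 113611187 to 113611617, minus strand), near the D-proximal end of the locus. It made up 1.33% of WT dCLN, 1.02% of WT sCLN, 1.33% of 5xFAD dCLN and 0.976% of 5xFAD sCLN cells, with ratios of 1.31 and 1.36. Its call is 1 among 43 tested genes and is given as a description. Among the genes that separated without reaching the ratio in both genotypes, IGHV1-19 was lower in dCLN at ratios of 0.689 and 0.813, and IGHV2-9-1 was higher at 1.19 and 1.34. IGHV1-82, the V gene of the largest 5xFAD dCLN clone, was higher at 1.15 and 1.13.

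The 5 most used genes did not reach the ratio in both genotypes. IGHV1-26 made up 5.54%, 6.37%, 6.38% and 5.86% of cells in WT dCLN, WT sCLN, 5xFAD dCLN and 5xFAD sCLN, lower in dCLN in WT and higher in 5xFAD. IGHV9-3 made up 4.74%, 3.23%, 3.94% and 4.63%, the reverse, and its WT difference of 1.52 points was the largest of the 43 genes in that genotype. IGHV3-6 (3.47%, 3.31%, 3.87% and 3.18%) and IGHV8-8 (3.38%, 3.28%, 3.56% and 2.67%) were higher in both dCLN libraries. IGHV1-81 made up 3.47%, 3.31%, 3.15% and 2.84%. The median absolute difference over the 43 genes was 0.186 points between the WT nodes and 0.321 between the 5xFAD nodes. Between genotypes it was 0.230 within the dCLN and 0.334 within the sCLN, so libraries of the same genotype differed about as much as libraries of the same node.

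**Figure D5:**
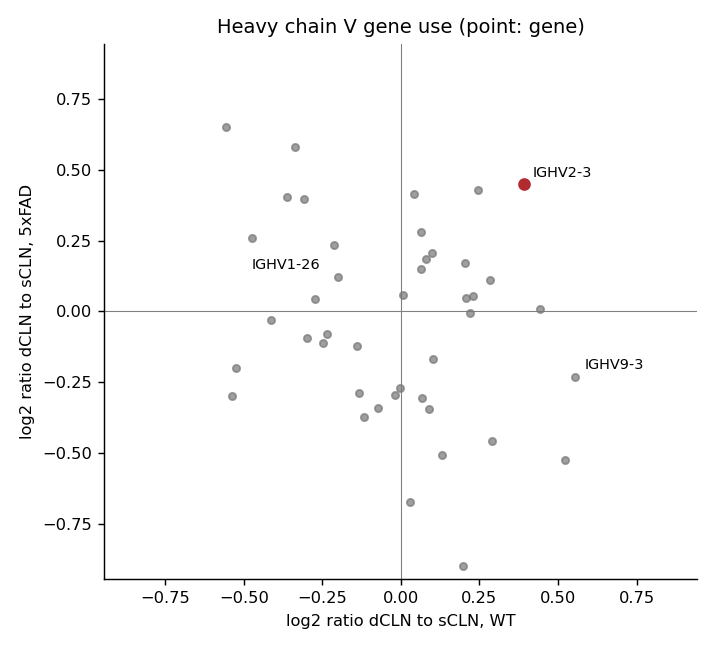
Log2 ratio of the share of cells in dCLN to that in sCLN for 43 heavy chain V genes, in WT (x axis) and 5xFAD (y axis). Points are genes, and the red point is IGHV2-3, the gene with a ratio of at least 5 to 4 in both genotypes and both dCLN libraries above both sCLN libraries; IGHV9-3 was higher in dCLN in WT alone.

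By V family, IGHV1 held most cells, at 56.7% of WT dCLN, 58.7% of WT sCLN, 58.1% of 5xFAD dCLN and 59.1% of 5xFAD sCLN, lower in both dCLN libraries. IGHV8 was higher in both, at 5.63% and 5.46% against 4.97% and 4.80%. IGHV9 was 6.25% in WT dCLN (5.46 to 7.12) and 4.45% in WT sCLN (3.78 to 5.19), the one family whose node intervals did not overlap, and it had the opposite order in 5xFAD (5.51% and 6.03%).

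Light chains gave a similar count. Among cells with exactly 1 light chain, 46 of 92 light chain V genes reached 1% in a library. Both dCLN libraries lay on one side of both sCLN libraries for 11 of these (23.9%), 4 higher and 7 lower, and 2 reached the ratio of 5 to 4 in both genotypes (4.35%). IGKV3-7 (chromosome 6, 70607437 to 70608036, plus strand) was higher in dCLN, at 1.37% and 1.02% in WT dCLN and sCLN and 1.69% and 1.11% in 5xFAD. IGKV5-43 (chromosome 6, 69823355 to 69823943, minus strand) was lower, at 1.03% and 1.36% in WT and 1.33% and 1.67% in 5xFAD. The sign agreed between genotypes for 22 of 46 genes (47.8%).

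Among the shares of lambda chains, J segments and cells with 2 light chains, 1 had intervals that did not overlap between the nodes, IGKJ5 in 5xFAD. Lambda chains were carried by 4.51% of WT dCLN, 5.11% of WT sCLN, 4.04% of 5xFAD dCLN and 4.50% of 5xFAD sCLN cells, with overlapping intervals. Of kappa cells, those with IGKJ5, the J segment farthest from the V genes and reached by repeated rearrangement, made up 29.1% in 5xFAD dCLN (27.5 to 30.6) and 25.4% in 5xFAD sCLN (23.6 to 27.4). The difference was 3.63 points (1.17 to 6.06). In WT the shares were 24.9% and 24.5%. IGKJ1, IGKJ2 and IGKJ4 had overlapping intervals between the nodes of each genotype. Cells with 2 productive light chains made up 9.60% and 8.22% of WT and 5xFAD dCLN cells and 7.79% and 7.60% of sCLN cells, higher in both dCLN libraries, as were barcodes with several heavy chains. What part doublets have in this was not tested.

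Heavy chain junctions were alike in mean length and N bases in both nodes. Mean length was 42.3 and 42.1 bases in WT dCLN and sCLN and 42.4 and 42.2 in 5xFAD (SD over cells 8.07, 7.85, 7.89 and 8.01). N bases at both joints together averaged 7.27, 7.07, 7.15 and 7.26 in that order (SD 3.86, 3.86, 3.86 and 3.93). Switched cells had more N bases than unswitched cells in each library, 8.86 against 7.19, 9 against 6.96, 8.43 against 7.07 and 8 against 7.24, in both nodes alike. N bases there may include mutated germline bases, which the tables do not separate. Among J segments IGHJ4, for example, made up 26.7%, 24.2%, 24.9% and 25.4% of cells, and among D segments the IGHD1 family 40.9%, 43.8%, 40.2% and 40.7%. No IGHJ gene and no IGHD family had intervals that did not overlap between the nodes of a genotype. The interval of the difference did not hold both signs for IGHJ4 in WT (2.52 points, 0.429 to 4.61). The same was true of IGHD1 in WT (-2.85, -5.42 to -0.284) and IGHD5 in 5xFAD (-0.487, -0.998 to -0.0691).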

How the data were processed

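Single-cell 5' V(D)J libraries were made from node cells tagged with hashtag antibodies 001 to 004, per the labels' protocols. The submitters' processing notes name Cell Ranger 6.0.1, Seurat 4.1.0 and mm10, without saying what each was used for. The germline set behind the segment calls is not given in the sources used here. Each line of a deposited table is 1 contig with its V, D, J and constant region calls. UMI and read numbers are counts as the authors deposited them, and the V identity is a fraction that the authors deposited and that was not used as a result. Lengths of junctions and N regions are numbers of bases, per the file headers.

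Barcodes with a single productive heavy chain were taken as cells, and those with several heavy chains were left out as possible doublets without a doublet caller. Mutation of the V region is the percent of its bases up to codon 104 unlike the aligned germline, not counting gaps and ambiguous bases. Joint V names (2.63% to 3.17% of cells) stood as names of their own in gene use and under their first name in clones. A clone had the same V, J and junction length of both chains, with heavy junctions that differed in at most 0.15 of their bases joined by single linkage. Clone shares are means over 1000 draws. Intervals of differences were made by square-and-add from the exact 95% intervals, and those of weighted IgD differences by normal approximation. The limit given beside a count of 0 is the upper end of its exact 95% interval. With 1 library per group there was no test and no p-value. The members, lists and alternatives were chosen with earlier results of these data known. Named were all isotypes, J genes and V and D families, V genes that met the rule in the text (at most 6 heavy and 4 light in each direction), the 5 most used IGHV genes, the receptors in both nodes (1 of which is not reported here) and the largest clone of each library. Genes named beyond that rule (IGHV1-19, IGHV1-82 and IGHV2-9-1, IGHV11-2) were chosen after their values were seen. Coordinates are from GENCODE M21 on GRCm38 (mm10). Python 3.11.15 with numpy 2.4.6, pandas 2.3.3 and scipy 1.17.1 was used, and the scripts were tested on simulated data. The library pooled from every node entered no comparison between the nodes.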

Additional observations from a re-analysis of the deposited data

Results flagged for a closer look

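In some measures the node difference (dCLN minus sCLN) differed between WT and 5xFAD by more than counting error. With 1 library per group the difference was not tested over animals, and since each interval is at 95%, some measures can appear here by counting error alone. For the IgM share of cells with an isotype, the WT difference minus the 5xFAD difference was -5.96 percentage points (-9.01 to -2.93). For IgD it was 7.30 points of cells with an isotype (4.44 to 10.2) and 7.34 points of unswitched cells (4.38 to 10.3). These 3 values describe the same calls, which moved with UMIs per cell as the report gives.

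The IGHV4 family gave -0.697 points (-1.36 to -0.0129), from -0.335 in WT and 0.362 in 5xFAD, on 15 to 39 cells per library. The IGHV9 family gave 2.33 points (0.707 to 3.99), from 1.81 in WT and -0.520 in 5xFAD. The share of cells in clones gave 7.26 points, which has no interval and which the report gives with identical barcodes counted once as well.

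Outside the comparisons, switched cells made up 6.93% (5.95 to 8.01) of the library pooled from every node and genotype. That is more than in each of the 4 cervical libraries and in the WT and 5xFAD inguinal libraries (1.43% and 1.20%). Why a pooled library lies above all 6 libraries of a labelled node and genotype was not tested. The pooled library cannot be split by node, so it bears on neither node.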

How the results depend on the processing

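Of 128 values under alternative settings, 105 kept their direction and, where it applied, their side of the interval rule. In WT, 4 further differences near 0 changed sign without separate intervals: the switched share was 0.0804 with several heavy chains kept, the high-immunoglobulin share 0.00803 with 1 light chain, and mean mutation 0.0539 with 1 light chain and 0.122 with identical barcodes counted once. The IgG1 difference in WT no longer had separate intervals with each clone counted once per isotype (-12.4 points) or without barcodes seen in several libraries (-12.8), and the IgA difference in 5xFAD had separate intervals with only cells of 1 light chain (0.477). The high-immunoglobulin difference in WT was -0.477 at a threshold of 50 UMIs. Without weighting, the IgD differences were 4.38 in WT and -2.96 in 5xFAD. The clone difference was 0.430 in WT and 0.148, of opposite sign, in 5xFAD with identical barcodes counted once, and -1.55 at 1000 cells and -2.14 without thinning in 5xFAD. Without the light chain, 4 heavy chains were in both nodes across genotypes. Heavy V genes called numbered 4 at a ratio of 1.1, 0 at 1.5, 4 with genes from 0.5% and 0 with genes from 2%; IGHV2-3 was among them in both settings with 4. Light V genes called numbered 1, IGKV3-7, with the light chain of most UMIs or with each clone counted once. No paired analysis was possible because the labels give no replicate numbers. The number of cells limits the rare classes: 4 IgA and 4 high-immunoglobulin cells in 5xFAD sCLN, and 6 receptors in both nodes. Library, sequencing run and node cannot be told apart.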
